A study of Penicillium oxalicum with 12 samples.

Results

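*cel7A* (*cbh1*, PDE_07945) and *cel6A* (*cbh2*, PDE_07124) encode the cellobiohydrolases of *Penicillium oxalicum*. They were chosen by name and are 2 of the 9909 genes that had a value in at least 1 of 12 mRNA libraries. Each gene was read for its expression level, for the ratio of *cel7A* to *cel6A*, and for its share of all FPKM in a library (FPKM, fragments counted per kilobase of transcript and scaled to the mapped reads of the library, a level corrected for gene length and depth). The gene lengths used for FPKM were 1641 bases for *cel7A* and 1849 bases for *cel6A*.

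The libraries came from the wild type strain 114-2 (WT) and from the strain Δ*Podot1*, made from it by replacing the coding region of *Podot1* (PDE_07484), the gene of a histone H3 lysine 79 methyltransferase, with a hygromycin resistance gene. Mycelia were grown at 30 °C for 24 h in a glucose preculture by the sample labels, whereas the study's methods give a shorter preculture. They were then grown for a further 24 h in one of 2 media. These contained 2% glucose (glucose medium) or cellulose and wheat bran at 1% each (cellulose medium). Each of the 4 combinations of strain and medium had 3 replicates. A single deletion strain was profiled, and its control was the parent strain without the resistance gene. The cellulose medium differed from the glucose medium in the bran as well as in the carbon source, so cellulose and bran cannot be told apart in these libraries.

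Cellulose is a crystalline bundle of glucose chains, and cellobiohydrolases degrade it processively from the chain ends, releasing the disaccharide cellobiose. Cel7A family enzymes start at the reducing end and Cel6A family enzymes at the non-reducing end. Endoglucanases open new ends within the chains, lytic polysaccharide monooxygenases cut the crystalline surface by oxidation, and β-glucosidases split cellobiose into glucose. In cellulolytic fungi these genes are induced on cellulosic substrates and repressed on glucose.

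The *Podot1* transcript was checked first, because it tests the strain labels. It stood at 25.8 to 36.4 FPKM in the 6 WT libraries and at 0 to 0.19 FPKM in the 3 Δ*Podot1* libraries from glucose medium. Among the cellulose libraries labelled Δ*Podot1*, replicate 3 had no *Podot1* value, but replicate 1 stood at 33.4 FPKM (341 reads) and replicate 2 at 58.4 FPKM (613 reads), as high as in WT. Replicate 2 also went against its medium. Over all genes, its log2(FPKM + 1) values correlated at 0.884 to 0.924 with the Δ*Podot1* glucose libraries and at only 0.644 to 0.657 with the other cellulose libraries labelled Δ*Podot1*. Replicate 1 correlated at 0.7695 to 0.8105 with the WT cellulose libraries and at 0.8991 with replicate 3. Its profile thus lay nearer to replicate 3 than to WT, despite its *Podot1* reads. The strain it came from was not tested. Replicates 1, 2 and 3 are therefore called the cellulose libraries labelled Δ*Podot1*. Results that rest on them are given with and without replicates 1 and 2. Total estimated counts were 4607764 to 7081689 per library with a median of 6535749, and both cellobiohydrolase genes had reads in all 12 libraries.

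In WT, both genes were of intermediate rank by FPKM in glucose-grown mycelium and among the most abundant transcripts of cellulose-grown mycelium. The *cel7A* level in glucose medium was 30.2, 33.7 and 37.7 FPKM in replicates 1, 2 and 3, and in cellulose medium it was 12060, 7681 and 8612 FPKM. The means were 33.9 ± 3.73 and 9451 ± 2307 FPKM (SD, n = 3). Every cellulose library thus lay far above every glucose library, by 204-fold for the closest pair and by 399-fold for the most distant one. Among the genes tested, 33.2% were likewise higher in cellulose medium without overlap.

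*cel6A* stood lower than *cel7A* in each library but moved in the same direction. Its WT levels in glucose medium were 8.88, 16.6 and 21.6 FPKM, with a mean of 15.7 ± 6.41 (SD, n = 3). Those in cellulose medium were 2185, 2406 and 2306 FPKM, with a mean of 2299 ± 110 (SD, n = 3). The pairs of libraries differed by 101-fold to 271-fold. The WT cellulose libraries agreed more closely with each other for *cel6A* than for *cel7A*, whereas in glucose medium the WT spread was wider for *cel6A*, which rested there on 80 to 285 reads a library.

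On TMM-scaled counts, cellulose medium raised the WT level of *cel7A* by 7.96 (log2, SE 1.39, adjusted p = 0.00162) and that of *cel6A* by 7.003 (log2, SE 1.33, adjusted p = 0.0024) in edgeR's quasi-likelihood test. A gene was called where its adjusted p was below 0.05 and it changed at least 2-fold. In this comparison 19.2% of the 9088 genes tested were called higher, and the median change of all genes was 0.05 (log2).

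**Figure D1:**
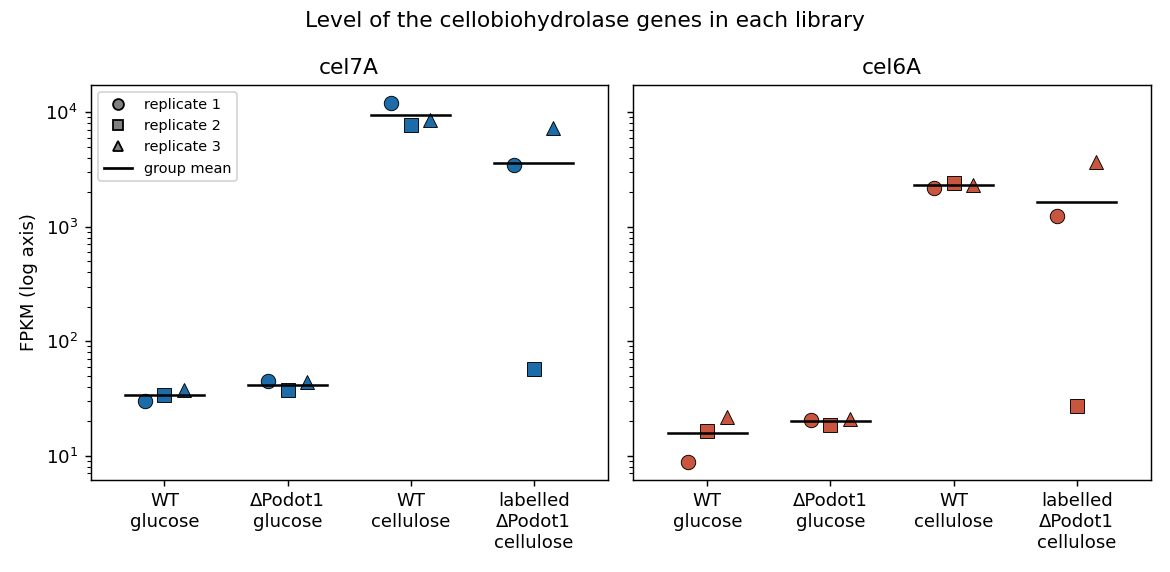
Expression levels of *cel7A* and *cel6A* (FPKM, log axis) in each of the 12 libraries by strain and medium, with points for single libraries numbered by replicate and bars for group means. The WT cellulose libraries sit at 7681 to 12060 FPKM for *cel7A* and at 2185 to 2406 FPKM for *cel6A*, whereas the cellulose libraries labelled Δ*Podot1* spread from 57.7 to 7219 and from 27.3 to 3665 FPKM.

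In glucose medium, the deletion strain held both genes at levels that overlapped those of WT. *cel7A* was at 44.7, 37.2 and 43.7 FPKM in Δ*Podot1* (41.8 ± 4.05, SD, n = 3), 1.24 times the WT mean. *cel6A* was at 20.4, 18.4 and 20.9 FPKM (19.9 ± 1.35, SD, n = 3), 1.27 times the WT mean. The lowest Δ*Podot1* library for *cel7A* lay just below the highest WT library, and all 3 Δ*Podot1* values for *cel6A* lay inside the WT range. Neither gene was called in edgeR's test, with changes of 0.22 (log2, SE 1.03, adjusted p = 0.929) for *cel7A* and 0.24 (log2, SE 1.03, adjusted p = 0.922) for *cel6A*, where 8.84% of genes were called in either direction. These SEs share a spread estimated over all 4 groups, the cellulose libraries labelled Δ*Podot1* included. With only the glucose groups in the fit, the changes were 0.27 (SE 0.205, adjusted p = 0.381, edgeR) and 0.28 (SE 0.346, adjusted p = 0.594, edgeR).

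The cellulose libraries labelled Δ*Podot1* held the widest spread of all groups. *cel7A* was at 3424, 57.7 and 7219 FPKM in replicates 1, 2 and 3, which is 36.2%, 0.610% and 76.4% of the WT cellulose mean. *cel6A* was at 1235, 27.3 and 3665 FPKM, or 53.7%, 1.19% and 159% of the WT mean. Replicate 2 thus held both transcripts close to the level of the glucose libraries, at 1.38 times the Δ*Podot1* glucose mean for *cel7A* and 1.37 times for *cel6A*. Replicate 3, the library of this group without *Podot1* reads, held more *cel6A* than any WT library. Bulk mRNA cannot tell fewer expressing hyphae from less transcript in each.

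Against the Δ*Podot1* glucose libraries, both genes were still called higher in cellulose medium. The change was 6.30 (log2, SE 1.29, adjusted p = 0.00673, edgeR) for *cel7A* and 6.26 (log2, SE 1.28, adjusted p = 0.00673, edgeR) for *cel6A*, where 13.4% of genes were called higher. Replicate 2 still lay above all Δ*Podot1* glucose libraries for both genes, so the groups did not overlap, as was so for 21.9% of genes. Without replicate 2, the changes were 6.88 (adjusted p = 9.01e-07, edgeR) and 6.83 (adjusted p = 2.59e-06, edgeR). Without replicates 1 and 2 they were 7.33 (adjusted p = 1.58e-06, edgeR) and 7.43 (adjusted p = 2.06e-06, edgeR), a fit in which the lone remaining library was assumed to vary like those of the other groups. In libraries, *cel7A* stood 81.8, 1.38 and 173 times above the Δ*Podot1* glucose mean in replicates 1, 2 and 3, and *cel6A* stood 62.0, 1.37 and 184 times above it. The calls lost the threshold when only the Δ*Podot1* groups entered the fit, at adjusted p = 0.0762 for *cel7A* and 0.077 for *cel6A* (edgeR), and *cel6A* also did so in limma on log2(FPKM + 10), at 4.21 (adjusted p = 0.0527).

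Between the strains in cellulose medium, neither gene was called. *cel7A* changed by -1.44 (log2, SE 1.04, adjusted p = 0.316, edgeR), and all 3 libraries labelled Δ*Podot1* lay below all 3 WT libraries, the highest at 7219 FPKM against the lowest WT library at 7681 FPKM. Among all genes tested, 17.3% were likewise lower without overlap, and 10.8% were called lower. *cel6A* changed by -0.51 (log2, SE 1.02, adjusted p = 0.733, edgeR), and its groups overlapped, with replicates 1 and 2 below and replicate 3 above every WT library.

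These strain differences depended on replicates 1 and 2. Without replicate 2, the change of *cel7A* was -0.86 (SE 0.434, adjusted p = 0.146, edgeR) and that of *cel6A* was 0.07 (adjusted p = 0.929, edgeR). Without both replicates it was -0.40 (adjusted p = 0.568, edgeR) for *cel7A* and 0.66 (adjusted p = 0.336, edgeR) for *cel6A*, so that the sign for *cel6A* turned. In limma on log2(FPKM + 1), which weighs each library's log level equally, the changes were -3.03 (adjusted p = 0.108) for *cel7A* and -2.19 (adjusted p = 0.229) for *cel6A*. The mean of replicates 1 and 3 was 56.3% of the WT mean for *cel7A* and 107% for *cel6A*.

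The response to medium was also compared between the strains, as an interaction of strain and medium. It was -1.66 (log2, SE 1.46, adjusted p = 0.531, edgeR) for *cel7A* and -0.75 (log2, SE 1.45, adjusted p = 0.794, edgeR) for *cel6A*, where 1.68% of genes had an adjusted p below 0.05. Without replicate 2 these values were -1.08 (adjusted p = 0.248) and -0.17 (adjusted p = 0.9), and without both replicates -0.62 (adjusted p = 0.524) and 0.43 (adjusted p = 0.683), all in edgeR. A difference in response between the strains was therefore not shown for either gene. The SEs were 0.575 for *cel7A* and 0.661 for *cel6A* without replicate 2.

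**Figure D2:**
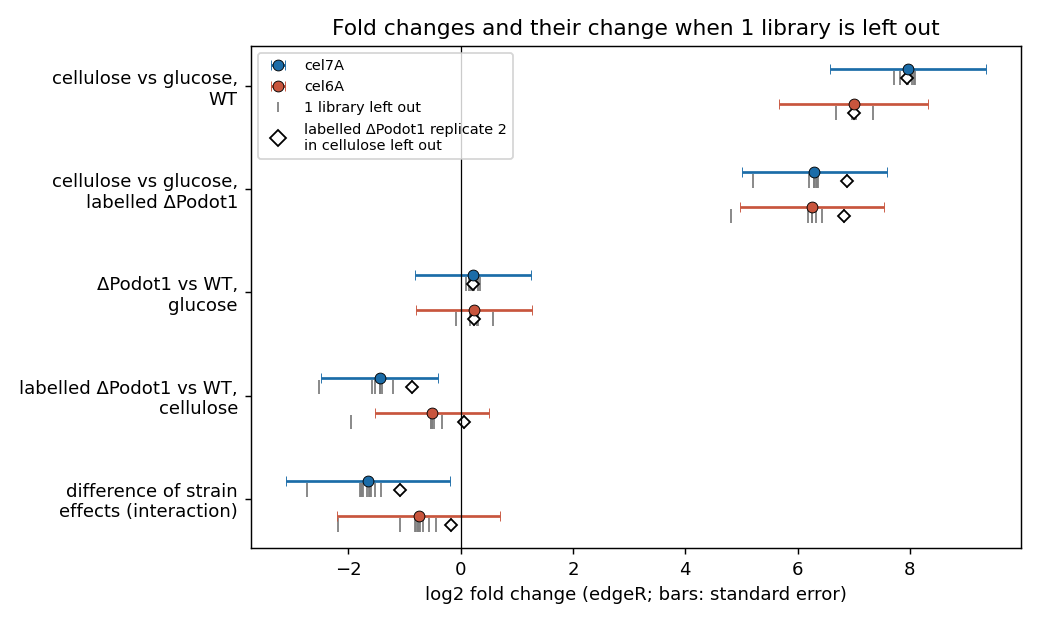
Changes of *cel7A* and *cel6A* (log2, edgeR on TMM-scaled counts) for medium within each strain, strain within each medium and the interaction. Points show the estimate and bars 1 SE. Grey ticks show the fits with 1 library left out. A diamond marks the fit without replicate 2 labelled Δ*Podot1* from cellulose medium. The medium contrasts lie at 6.26 to 7.96 with all libraries. The strain contrast for *cel6A* in cellulose medium moves from -0.51 to 0.07 without that replicate.

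The balance between the cellobiohydrolases was read as the ratio of *cel7A* FPKM to *cel6A* FPKM in each library. *cel7A* exceeded *cel6A* in all 12 libraries, by 1.74-fold to 5.52-fold, a span of 3.16-fold over libraries in which *cel7A* itself spanned 399-fold and *cel6A* 413-fold. In WT glucose medium the ratio was 3.40, 2.04 and 1.74 in replicates 1, 2 and 3 (2.39 ± 0.885, SD, n = 3). In WT cellulose medium it was 5.52, 3.19 and 3.73 (4.15 ± 1.22, SD, n = 3). The highest glucose library lay above the lowest cellulose library, so these groups overlapped. Replicate 1 from glucose medium had the fewest reads, and its ratio had a 95% counting interval of 2.63 to 4.44 (exact Clopper-Pearson, covering counting error only).

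In Δ*Podot1* glucose medium the ratio was 2.19, 2.02 and 2.09 (2.10 ± 0.0821, SD, n = 3), the tightest group. In the cellulose libraries labelled Δ*Podot1* it was 2.77, 2.11 and 1.97 (2.28 ± 0.429, SD, n = 3). Replicate 2, with both levels near those of glucose medium, and replicate 3, with levels of 7219 and 3665 FPKM, thus held nearly the same ratio. All 3 of these libraries lay below the 3 WT cellulose libraries.

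The log2 ratio was compared in 6 ways by two-sided exact permutation tests over libraries, with Benjamini-Hochberg adjustment over the 6. In cellulose medium the ratio of the libraries labelled Δ*Podot1* was 0.559 times that of WT, a log2 difference of -0.84 (exact permutation p = 0.1, adjusted p = 0.2), lower in 3 of 3 libraries. Without replicate 2 this difference was -0.79 (exact permutation, adjusted p = 0.3), and without replicates 1 and 2 it was -1.04 (exact permutation, adjusted p = 0.375). With 3 libraries against 3 the smallest p that such a test allows is 0.1. Within media over both strains, the log2 difference between Δ*Podot1* and WT was -0.48 (exact permutation p = 0.075, adjusted p = 0.2). It was -0.46 without replicate 2 and -0.58 without both. The remaining differences were 0.82 between media in WT (exact permutation p = 0.2, adjusted p = 0.3), 0.11 between media in Δ*Podot1* (exact permutation p = 0.8, adjusted p = 0.9), -0.13 between strains in glucose medium (exact permutation p = 0.9, adjusted p = 0.9) and 0.46 between media within strains (exact permutation p = 0.095, adjusted p = 0.2). The difference between media was 0.16 in Δ*Podot1* and 0.49 within strains without replicate 2, and -0.09 and 0.36 without both. No difference in the ratio passed the threshold after adjustment, with all libraries or in either of these reduced sets.

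**Figure D3:**
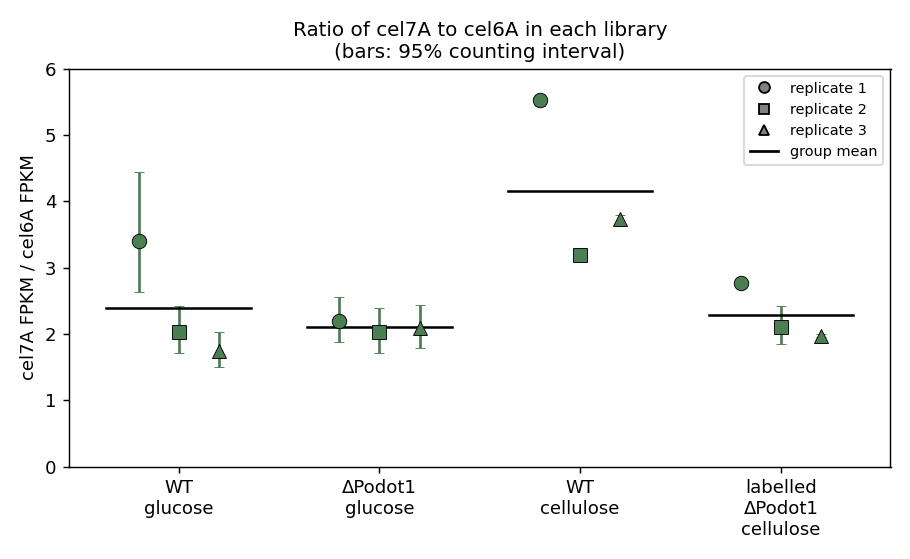
Ratio of *cel7A* FPKM to *cel6A* FPKM in each library by strain and medium, with points numbered by replicate and bars for the 95% counting interval. The WT cellulose libraries lie at 3.19 to 5.52 and the cellulose libraries labelled Δ*Podot1* at 1.97 to 2.77, without overlap.

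The share of a library's transcripts taken by both genes followed the levels. It was 1.86%, 1.33% and 1.43% of all FPKM in the WT cellulose libraries (1.54 ± 0.282, SD, n = 3), against 0.00496% to 0.00797% in the WT glucose libraries and 0.0075% to 0.00886% in the Δ*Podot1* glucose libraries. In the cellulose libraries labelled Δ*Podot1* it was 0.639%, 0.0116% and 1.53%. Replicate 3 of that group thus lay inside the WT range, replicate 1 below it, and replicate 2 near the glucose libraries.

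The split of that share between the genes differed from library to library. *cel7A* alone took 1.57%, 1.01% and 1.13% of all FPKM in the WT cellulose libraries, and *cel6A* took 0.285%, 0.316% and 0.302%. In replicate 3 labelled Δ*Podot1* the shares were 1.01% for *cel7A* and 0.514% for *cel6A*, so a combined share within the WT range held a larger part of *cel6A*.

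Ranked by FPKM, *cel7A* was gene number 2, 6 and 7 of its library in WT cellulose medium, and *cel6A* was number 32, 27 and 32. In the cellulose libraries labelled Δ*Podot1*, *cel7A* ranked 12, 2474 and 3 and *cel6A* 52, 4611 and 10. In the 6 glucose libraries *cel7A* ranked from 2932 to 4110 and *cel6A* from 4565 to 6696.

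**Figure D4:**
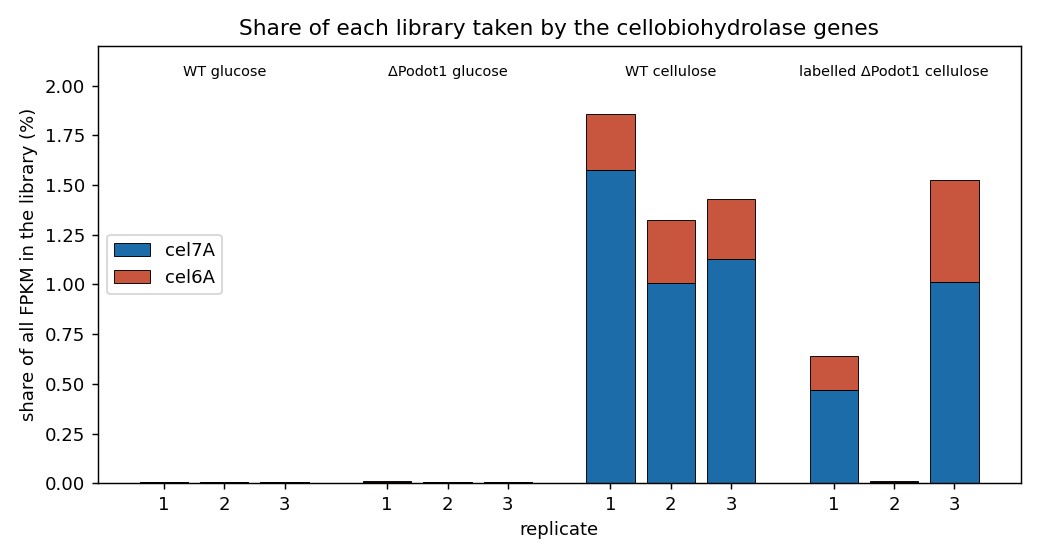
Percent of all FPKM of a library taken by *cel7A* and *cel6A* in each of the 12 libraries, as stacked bars on a linear axis. The WT cellulose libraries sit at 1.33% to 1.86%, the 6 glucose libraries at 0.00496% to 0.00886%, and the cellulose libraries labelled Δ*Podot1* at 0.639%, 0.0116% and 1.53%.

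The enzymes that act with cellobiohydrolases were followed in a list of 9 other genes of cellulose breakdown. It held genes of the endoglucanases *cel7B*, *cel5B*, PDE_00507, PDE_06439 and PDE_07928, of the β-glucosidase *cel3A* and of the lytic polysaccharide monooxygenase *cel61A*. It also held PDE_02102, annotated as an expansin, a protein that loosens cell walls without cutting the chains, and PDE_09278, annotated as an acetylxylan esterase, which acts on xylan and not on cellulose. The study reported all of these genes, *cel5B* included, as lower in Δ*Podot1* from these same libraries, so their direction is not independent evidence. It had also named *cel7B*, *cel5B*, *cel3A* and *cel61A* as prominent secreted enzymes from an earlier secretome. In WT all 9 were called higher in cellulose medium, with a median change of 6.83 (log2, range 4.46 to 8.88), where 19.2% of all genes were called higher. In Δ*Podot1*, 8 of 9 were called higher, with 13.4% of all genes and with a median of 4.66 against 0.07 over all genes tested, the exception being the endoglucanase gene PDE_06439 at 0.25 (adjusted p = 0.734, edgeR). Without replicate 2 and without both doubtful libraries 8 of 9 were again called higher, with 20.5% and 16.9% of all genes. Between the strains in glucose medium their changes lay between -0.54 and 1.12.

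In cellulose medium the changes of these 9 genes between the strains were all below 0, with a median of -1.92 (log2), against a median of 0.14 over all genes tested. Of them, 3 were called lower, with 10.8% of all genes, namely the monooxygenase gene *cel61A* at -3.13 (adjusted p = 0.0428, edgeR), PDE_06439 at -4.15 (adjusted p = 0.000846, edgeR) and the esterase gene PDE_09278 at -2.56 (adjusted p = 0.0151, edgeR). The change of *cel6A*, -0.51, lay next to that of *cel5B* at -0.53 (adjusted p = 0.706, edgeR), the one of the 9 nearest to 0, and that of *cel7A*, -1.44, lay inside their range of -4.15 to -0.53. Without replicate 2, 7 of 9 were called lower, with 12.1% of all genes, and without replicates 1 and 2, 4 of 9 were, with 11.6% of all genes. Neither cellobiohydrolase gene was called in either fit.

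A second list held 4 other secreted glycoside hydrolase genes. All 4 were called higher in cellulose medium in WT, with 19.2% of all genes, and 2 were called lower in the cellulose libraries labelled Δ*Podot1*, with 10.8% of all genes. These were the amylase genes *amy15A*, a glucoamylase, at -5.42 (log2, adjusted p = 0.00328, edgeR) and *amy13A*, an α-amylase, at -4.22 (adjusted p = 0.00651, edgeR). The xylanase gene *xyn10A* was at -0.32 (adjusted p = 0.82, edgeR) and the chitinase gene *chi18A* at -1.05 (adjusted p = 0.535, edgeR). Without replicate 2 and without both, *amy15A* was still called lower at -4.91 (adjusted p = 0.000229, edgeR) and -4.56 (adjusted p = 0.00203, edgeR), and *amy13A* at -3.68 (adjusted p = 0.000633, edgeR) and -3.24 (adjusted p = 0.00409, edgeR). *amy15A* stood at 2.55%, 0.406% and 4.27% of its WT cellulose mean in replicates 1, 2 and 3, so it was under 5% in each of them, whereas *cel7A* and *cel6A* were so in replicate 2 only.

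The genes whose pattern was most like each cellobiohydrolase were found by the root-mean-square distance of mean-centred log2(FPKM + 1) over the 12 libraries, among the 9273 genes whose mean reached 1 FPKM. For *cel6A* the nearest gene was *cel5B* (PDE_09226) at a distance of 0.231, followed by PDE_08879 (0.405), PDE_05194 (0.476), *cel7A* (0.480) and PDE_09969 (0.512). For *cel7A* it was again *cel5B* (0.460), followed by *cel6A* (0.480), the hypothetical protein gene PDE_04106 (0.536), PDE_05194 (0.582) and PDE_08879 (0.601). The same 5 genes were nearest to each member when replicate 2 labelled Δ*Podot1* from cellulose medium was left out. Replicate 1, which also held *Podot1* reads, stayed in that comparison.

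The levels of *cel5B* show how close this likeness was. *cel5B* stood at 4.35, 7.31 and 8.04 FPKM in WT glucose medium, at 972, 1348 and 1320 FPKM in WT cellulose medium, at 8.46, 9.04 and 9.36 FPKM in Δ*Podot1* glucose medium and at 930, 12.6 and 1620 FPKM in the cellulose libraries labelled Δ*Podot1*. The ratio of *cel6A* to *cel5B* therefore stayed between 1.33 and 2.69 in all 12 libraries, a span of 2.02-fold. The ratio of *cel7A* to *cel5B* ran from 3.68 to 12.4, a span of 3.37-fold.

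*cel7B*, an endoglucanase of the same enzyme family as *cel7A*, was less alike, at rank 13 from *cel7A* and rank 16 from *cel6A*. Its WT cellulose levels were 1612, 1308 and 1553 FPKM, and those in the libraries labelled Δ*Podot1* were 280, 18.2 and 802 FPKM. The ratio of *cel7A* to *cel7B* was 3.08 ± 0.666 (SD, n = 3) in WT glucose medium and 6.30 ± 1.03 (SD, n = 3) in WT cellulose medium. In the cellulose libraries labelled Δ*Podot1* it was 12.3, 3.18 and 9.001, above every WT library in replicates 1 and 3 and at the WT glucose level in replicate 2.

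Within the FPKM summed over these 9 genes and both cellobiohydrolase genes, 11 in all, *cel7A* held the larger part in cellulose medium. It made up 60.7%, 43.9% and 49.2% in the WT cellulose libraries, and 34.1% to 37.3% in the WT glucose libraries. *cel6A* made up 10.997%, 13.7% and 13.2% in the WT cellulose libraries, and 17.8%, 15.8% and 25.1% in the cellulose libraries labelled Δ*Podot1*. Each of the latter lay above the WT cellulose values. In glucose medium *cel6A* made up 10.971% to 19.5% in WT and 16.1% to 17.1% in Δ*Podot1*. Replicate 2 thus lay just below the Δ*Podot1* glucose libraries, and replicate 1 lay inside the WT glucose range. Without replicates 1 and 2, the higher part of *cel6A* rested on replicate 3 alone. *cel7A* made up 49.3%, 33.3% and 49.5% in the cellulose libraries labelled Δ*Podot1*, overlapping WT cellulose medium. In replicates 1 and 3 labelled Δ*Podot1*, both genes together made up 67.1% and 74.6%, against 57.6% to 71.7% in WT.

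**Figure D5:**
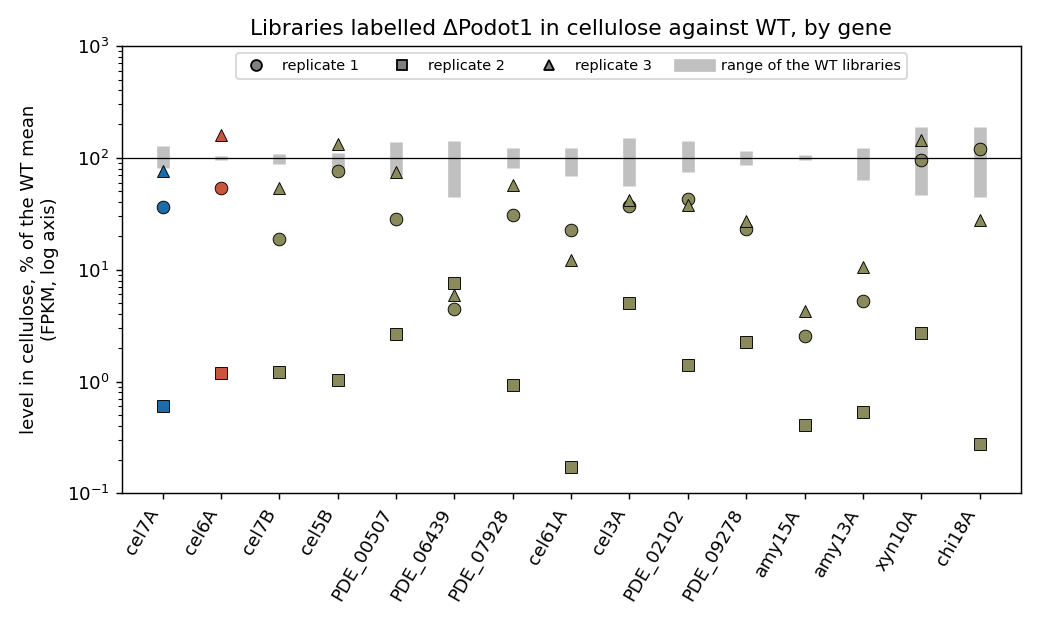
Level of *cel7A*, *cel6A* and the other glycoside hydrolase genes in each cellulose library labelled Δ*Podot1*, as percent of the gene's WT cellulose mean, on a log axis with symbols for replicates 1, 2 and 3. *cel6A* sits at 53.7%, 1.19% and 159%, next to *cel5B* at 76.7%, 1.04% and 134%, whereas *amy15A* stays at 2.55%, 0.406% and 4.27%.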

How the data were processed

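The authors mapped BGISEQ-500 reads to the genome with HISAT and to predicted transcripts with Bowtie2 and deposited, for each library, an estimated count and an FPKM value per gene. Program versions and the counting tool: not given in the sources used here. The labels describe a tag-based library instead, whereas the files carry gene lengths and FPKM. The deposited estimated counts were rounded, since 0.713% were not whole, and those of *cel7A* and *cel6A* were whole. Genes with no row in a library were set to 0.

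Counts were scaled by TMM, filtered with filterByExpr and fitted with edgeR 4.0.16 (quasi-likelihood, R 4.3.3) over 12 libraries with 1 mean per group, and p-values were Benjamini-Hochberg adjusted over 9088 genes. SE was the change divided by the square root of F. Calls needed an adjusted p below 0.05 and a change of at least 2-fold. Ratios were tested by exact permutation over libraries. DESeq2 1.42.0, limma 3.58.1 on log2(FPKM + pseudocount), other scalings and filters, only the groups compared, a replicate block and leaving out libraries were the alternatives. For both lists and the adjacent genes, leaving out the cellulose libraries labelled Δ*Podot1* that held *Podot1* reads was chosen after seeing the data. For the likeness only replicate 2 was left out, also chosen after seeing the data. The code was tested on simulated counts with 200 genes changed 4-fold in 1 group. In edgeR 57.5% of them were called for medium in WT. The values were 52.5% for strain in glucose medium and 50.5% for strain in cellulose medium. A gene that was not called may therefore still have changed.

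Named genes were *cel7A* and *cel6A*, *Podot1*, both lists, the 5 genes nearest to each member, and genes within 5 locus tags only where called and at 100 FPKM or more in a library. The members and lists were chosen with earlier results of these data known. The methods state 3 biological replicates per group, and depth was 4607764 to 7081689 counts per library.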

Additional observations from a re-analysis of the deposited data

How the results depend on the processing

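Every rise in WT was called under all 23 alternatives, at 7.71 to 8.12 (log2) for *cel7A* and 6.52 to 7.34 for *cel6A*. In Δ*Podot1* the rise was below the threshold with only the groups compared, at 6.32 (adjusted p = 0.0762) for *cel7A* and 6.27 (adjusted p = 0.077) for *cel6A* in edgeR, and for *cel6A* with limma on log2(FPKM + 10), at 4.21 (adjusted p = 0.0527). No strain difference or interaction of either gene was called under any alternative. Scaling by library size alone moved the median change of all genes between media from 0.05 to 0.21 in WT and from 0.07 to 0.24 in Δ*Podot1*, and *cel7A* in WT from 7.96 to 8.12. Signs turned for *cel6A* between strains in cellulose medium without replicate 2 labelled Δ*Podot1* (0.067) and without replicates 1 and 2 (0.66), for its interaction without both (0.43), and for its strain difference in glucose medium without WT replicate 1 (-0.081). They turned for the log2 ratio between media in Δ*Podot1* without cellulose replicate 1 (-0.041) and without both (-0.091), and between strains in glucose medium without WT replicate 1 (0.16). Taken over counts in place of FPKM, the share of both genes was 0.00851% in WT glucose, 1.99% in WT cellulose and 0.0106% in Δ*Podot1* glucose medium.

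With 1 library left out at a time, the change of *cel7A* ran over 7.71 to 8.09 between media in WT, 5.21 to 6.88 between media in Δ*Podot1*, 0.09 to 0.34 between strains in glucose medium, -2.53 to -0.86 between strains in cellulose medium and -2.74 to -1.08 for the interaction. That of *cel6A* ran over 6.68 to 7.34, 4.82 to 6.83, -0.08 to 0.57, -1.95 to 0.07 and -2.18 to -0.17 in the same order. The log2 ratio ran over 0.59 to 1.10 between media in WT, -0.04 to 0.21 between media in Δ*Podot1*, -0.33 to 0.16 between strains in glucose medium, -1.01 to -0.61 between strains in cellulose medium, 0.35 to 0.60 between media within strains and -0.58 to -0.34 between strains within media. The share of all FPKM ran over 0.00581% to 0.00731% in WT glucose, 1.38% to 1.65% in WT cellulose, 0.00809% to 0.00878% in Δ*Podot1* glucose and 0.325% to 1.08% in the cellulose libraries labelled Δ*Podot1*.

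The replicate numbers did not pair the libraries, since 2 of 18 same-numbered pairs deviated together at a correlation above 0.1 and 2 of 12 libraries lay closest to their own number. With the replicate block the changes of *cel7A* were 7.93 (adjusted p = 0.00377) and 5.91 (adjusted p = 0.0213) between media in WT and Δ*Podot1*, and -1.83 (adjusted p = 0.271) between strains in cellulose medium, all in edgeR. Those of *cel6A* were 7.12 (adjusted p = 0.00444), 5.83 (adjusted p = 0.0197) and -0.98 (adjusted p = 0.549). The block moved the number of genes called from 3192 to 3064 between media in WT and from 153 to 79 for the interaction, and it changed no call of either gene.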

Other observations

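The genes next to the cellobiohydrolase genes, taken as the 5 locus tags on each side, were examined for a shared response. Of the 9 such genes tested beside *cel7A*, 1 was called higher in cellulose medium in WT, PDE_07946 at 0.91 FPKM in glucose and 23.9 FPKM in cellulose medium (named after its value was seen), where 19.2% of all genes were called higher. PDE_07944, directly before *cel7A* by locus tag, was at 88.4, 78.3 and 100.5 FPKM in Δ*Podot1* glucose medium and at 31.4, 79.9 and 26.3 FPKM in the cellulose libraries labelled Δ*Podot1*, a change of -1.15 (log2, adjusted p = 0.0405, edgeR), with replicate 2 inside the glucose range. Without replicate 2 the change was -1.76 (adjusted p = 0.000143, edgeR), and without replicates 1 and 2 it was -1.86 (adjusted p = 0.00137, edgeR). Of the 9 tested beside *cel6A*, 5 were called higher in WT, with 19.2% of all genes, and 7 in Δ*Podot1*, with 13.4% of all genes. The number in Δ*Podot1* was 7 without replicate 2, with 20.5% of all genes, and 1 (PDE_07121, named after its value was seen) without replicates 1 and 2, with 16.9% of all genes. PDE_07121 was near the floor, at 0.14, 0 and 0 FPKM in Δ*Podot1* glucose medium. In the cellulose libraries labelled Δ*Podot1* it was at 7.44, 1.52 and 1.35 FPKM. PDE_07120 and PDE_07122, also called in Δ*Podot1* (named after their values were seen), reached at most 6.89 and 5.27 FPKM in any library. Beside *cel6A*, 2 of the 9 were called lower in Δ*Podot1* glucose medium than in WT, where 8.84% of all genes were called in either direction. These were PDE_07125 and PDE_07126 (named after its value was seen), the latter at -2.01 (log2, adjusted p = 0.026, edgeR). In cellulose medium 1 of the 9 was called lower, PDE_07125, with 10.8% of all genes. The neighbour PDE_07125 stood at 31.0, 23.8 and 26.3 FPKM in WT glucose medium and at 43.3, 86.6 and 122 FPKM in WT cellulose medium. In the deletion strain it stood at 6.51, 10.3 and 6.54 FPKM in glucose medium, below every WT library, a change of -1.87 (log2, adjusted p = 0.0273, edgeR). In the cellulose libraries labelled Δ*Podot1* it was at 51.1, 35.7 and 14.1 FPKM, a change of -1.40 (adjusted p = 0.0364, edgeR), with replicate 1 inside the WT range. That change was -1.41 (adjusted p = 0.0506, edgeR) without replicate 2 and -2.57 (adjusted p = 0.0091, edgeR) without both. *cel6A* itself was not called in either strain comparison.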
